A study of Rattus norvegicus with 16 samples.

Results

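The genes examined were 10 complement components and receptors (C1qa, C1qb, C1qc, C1s, C2, C3, Cfb, C3ar1, C5ar1 and Serping1), taken by their symbols from the 21021 genes listed for rat dorsal root ganglia (DRGs), each symbol being listed once. Complement is a protein cascade of plasma and tissue that tags cells and debris for uptake, draws in leukocytes and can open membranes. C1q, built from the products of C1qa, C1qb and C1qc, recognises antibody and altered surfaces, and through the protease C1s it leads to cleavage of C4 and C2 and then of C3, while factor B (Cfb) carries the alternative pathway, which amplifies C3 cleavage. The released fragments act on leukocytes through the receptors encoded by C3ar1 and C5ar1, and Serping1 encodes the C1 inhibitor, which blocks C1s and its partner C1r. In nervous tissue C1q is known mainly as a product of macrophages and microglia.

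RNA was sequenced from the L3–L5 DRGs of adult female Sprague-Dawley rats, with the ganglia of 1 rat pooled as 1 sample and 4 rats in each of 4 groups. In the rats with tumor cell implantation (TCI), Walker 256 mammary carcinoma cells from ascites were placed in the cavity of the left tibia, and ganglia of that side were taken on day 1 (TCI D1), day 7 (TCI D7) or day 14 (TCI D14). Sham rats received PBS in the same place by the sample labels, but boiled tumor cells by the study's methods, and the labels give day 14 for all of them, so that time since surgery and tumor cannot be told apart in the comparisons of TCI D1 and D7 with sham. The study left replicate 2 of TCI D1 and replicate 3 of TCI D7 out of its statistics, so values were computed over the other 14 samples and again over all 16.

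The unit was FPKM (fragments mapped to a gene, scaled by transcript length and by the fragments mapped in the sample), whose sum was 436572 to 473959 per sample, with 13150 to 13805 genes at 1 FPKM or more. TCI D7 replicate 3 stood apart by its skeletal muscle markers (summed level 19625 FPKM), as did sham replicate 4 to a smaller extent (468 FPKM), against 8.52 to 19.7 FPKM in the other samples. TCI D1 replicate 2 had the highest mean level of Schwann cell markers, 8.06 on the log2(FPKM + 1) scale against 6.67 to 7.56 in the other samples. The most abundant genes in the marker lists of neurons (Nefl, Nefm), Schwann cells (Pmp22, Mbp) and satellite glia (Apoe, Glul) were present in every sample. Of 6 genes of the liver, the organ that makes most plasma complement, Serpina1 was at 5.47 to 8.24 FPKM. The other 5 were at or below 1.70 (Ttr), with Alb at or below 0.32 and Fgb at or below 0.05 FPKM. A whole ganglion is a mixture of cells, so that a higher level from more cells of a type and a higher level per cell cannot be told apart.

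By Entrez gene identifier, 10 of 10 genes were found in the RefSeq gene table of assembly GRCr8, where C1qa, C1qc and C1qb lie side by side, as do C1s and C1r, and C2 and Cfb, with 0 protein-coding genes between neighbours. RefSeq promoter windows of 300 bases, from 250 before to 50 after the gene start, were available for 4 of the 10 genes. They are shown for the 3 in which 1 of 5 motifs was found. The motifs, searched on both strands, were the ISRE core GAAANNGAA, GAS TTCNNNGAA, PU.1 GAGGAAGT, C/EBP TTGCNNAAT and NF-kB GGGNNNTCC, and the matched bases are in capitals in the lines below (GRCr8, minus strand, 5′ to 3′).
C1qa (chr5:154419884-154420183): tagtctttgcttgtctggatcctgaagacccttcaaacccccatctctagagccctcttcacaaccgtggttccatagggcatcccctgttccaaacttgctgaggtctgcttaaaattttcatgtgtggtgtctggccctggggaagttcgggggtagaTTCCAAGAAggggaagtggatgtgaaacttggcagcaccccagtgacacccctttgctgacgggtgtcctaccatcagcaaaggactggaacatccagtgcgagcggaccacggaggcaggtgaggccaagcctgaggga
C1qb (chr5:154407778-154408077): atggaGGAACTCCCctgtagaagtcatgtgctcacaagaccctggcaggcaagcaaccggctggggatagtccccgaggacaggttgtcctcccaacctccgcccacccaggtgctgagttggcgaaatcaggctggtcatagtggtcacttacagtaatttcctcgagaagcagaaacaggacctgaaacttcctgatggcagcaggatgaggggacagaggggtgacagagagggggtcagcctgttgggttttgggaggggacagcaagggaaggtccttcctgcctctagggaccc
C3 (chr9:2201290-2201589): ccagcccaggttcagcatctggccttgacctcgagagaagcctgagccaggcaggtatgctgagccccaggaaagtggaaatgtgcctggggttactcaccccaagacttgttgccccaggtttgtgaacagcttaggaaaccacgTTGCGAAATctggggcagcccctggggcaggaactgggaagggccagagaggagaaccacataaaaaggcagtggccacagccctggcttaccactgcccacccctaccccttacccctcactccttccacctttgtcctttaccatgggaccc
The C1qa window held a GAS match at bases 161 to 169, the C1qb window an NF-kB match on the opposite strand at bases 6 to 14, and the C3 window a C/EBP match at bases 147 to 155. Of the 33469 rat windows in the same table, 8.87% held the GAS motif, 17.3% the NF-kB motif and 2.58% the C/EBP motif, and a match describes the letters, not a used site. The ISRE core (9.71% of windows) and PU.1 (2.42%) were in none of the 4 windows, and the C3ar1 window held none of the 5 motifs.

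Of the 10 genes, 10 were higher on TCI D7 than in sham and 6 were higher on TCI D14, while 0 passed the cut-offs on TCI D1, against 1.83%, 0.642% and 0% of the 14023 tested genes. Ratios of mean FPKM to sham ran from 5.02 (C3ar1) to 20.6 (C3) on TCI D7, with a median of 10.5, and from 2.61 (C3ar1) to 28.6 (C3) on TCI D14, with a median of 7.65. The sum of the 10 genes was 58.3 to 90.7 FPKM in sham, 588 to 684 FPKM on TCI D7 and 269 to 999 FPKM on TCI D14. Every TCI D7 and every TCI D14 sample lay above every sham sample in 10 of 10 genes, both over the 14 and over the 16 samples. Over the 14 samples the same was true of 23.8% of the 14023 tested genes on TCI D7 and of 13.8% on TCI D14, and over the 16 samples of 18.2% and 13.8% of 14087. C3 and C3ar1 reached the 1 FPKM in 3 samples needed for testing only through their TCI D7 and D14 samples. Their separation from sham was thus not independent of their entry, while the other 8 genes did not enter in this way. Of the 14023 genes, 688 entered as C3 and C3ar1 did. Genes were called changed when the log2 fold change was 1 or more in either direction and the adjusted p did not exceed 0.001 in 1 limma model of the 4 groups on log2(FPKM + 1), so that fold changes on this scale understate those of low genes.

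**Figure D1:**
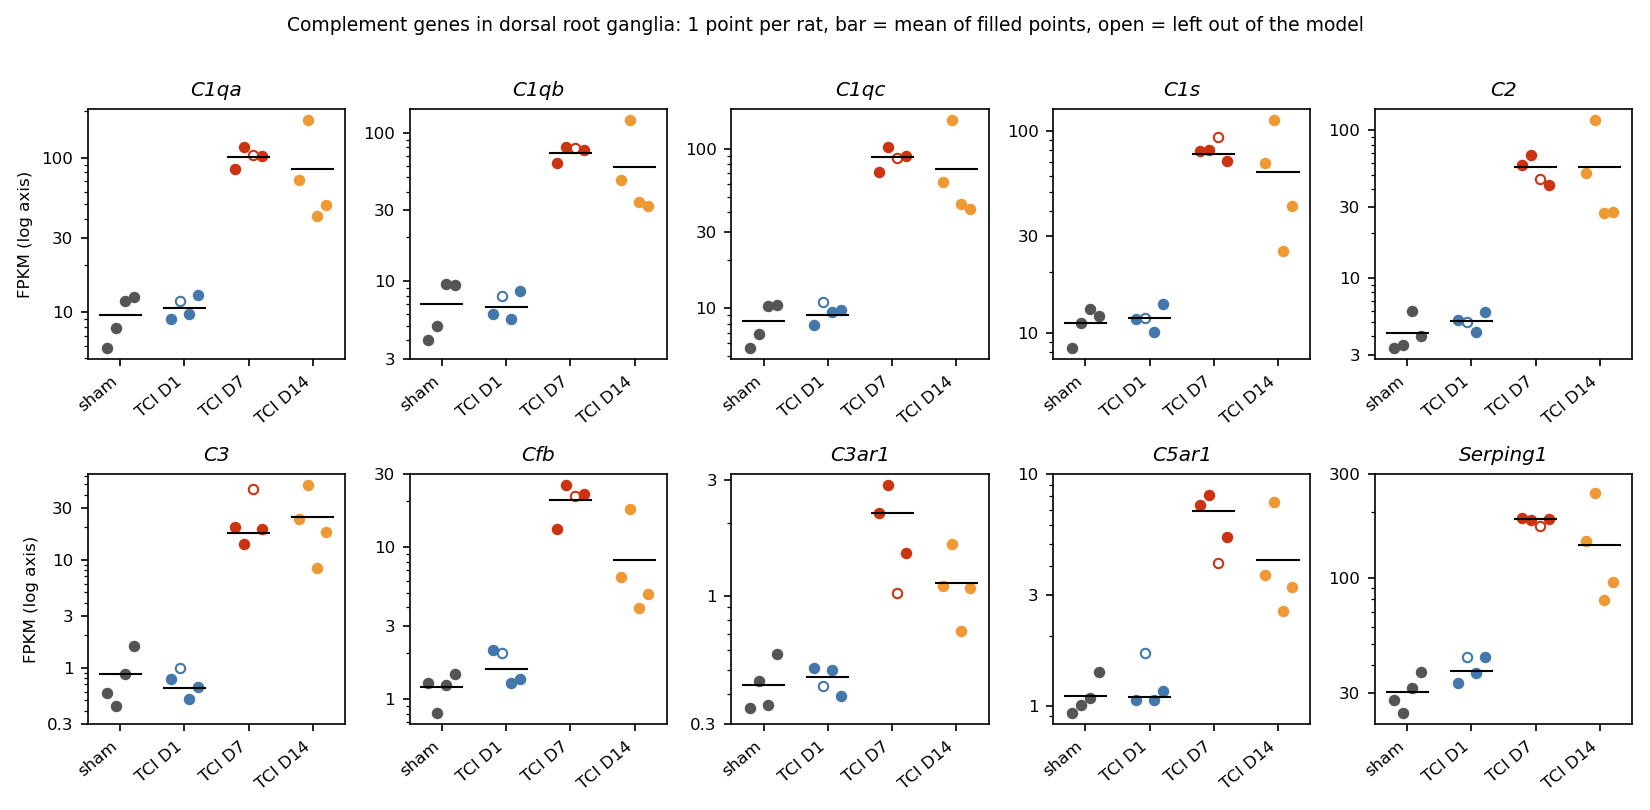
FPKM of each gene (log axis) in the 16 samples by group, with 1 point per rat, bars at the mean of the filled points and open points for the 2 samples left out of the model. All TCI D7 and D14 points lie above all sham and TCI D1 points in the 10 panels, and the highest TCI D14 point is replicate 2 in each.

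C1qa, C1qb and C1qc encode the 3 chains of C1q. C1qa was at 5.85, 7.90, 11.7 and 12.5 FPKM in the sham rats and at 8.96, 9.67 and 12.9 FPKM on TCI D1 (11.7 in the left-out replicate 2). It reached 84.0, 118 and 102 FPKM on TCI D7 (103 in the left-out replicate 3) and 72.0, 175, 41.9 and 49.1 FPKM on TCI D14. The sham and TCI D1 values overlapped, and every TCI D7 and D14 sample was at least 3 times the highest of them, with the widest spread on TCI D14. C1qa rose by a log2 fold change of 3.33 ± 0.390 (SE) on TCI D7 (limma, adjusted p = 0.000170) and of 2.84 ± 0.361 on TCI D14 (limma, adjusted p = 0.000602). For every gene the SE, confidence interval and p rest on 1 spread shared by the 4 groups. They therefore do not show the wider spread of TCI D14. For C1qa the SD of log2(FPKM + 1) was 0.910 on TCI D14, 0.242 on TCI D7 and 0.458 in sham.

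C1qb followed the same course at a lower level, with 7.01 ± 2.92 FPKM in sham (SD, n = 4), 73.0 ± 9.50 on TCI D7 (n = 3) and 59.0 ± 42.7 on TCI D14 (n = 4), changes of 3.28 (limma, adjusted p = 0.000204) and 2.76 (limma, adjusted p = 0.000709) on the log2 scale. C1qc had 8.32 ± 2.43 FPKM in sham, 88.1 ± 15.7 on TCI D7 and 74.7 ± 51.5 on TCI D14, changes of 3.28 (limma, adjusted p = 0.000111) and 2.86 (limma, adjusted p = 0.000315). The proportions of the chains varied less. Within a sample the ratio of C1qa to C1qb was 1.23 to 1.74 and that of C1qa to C1qc 0.939 to 1.32 over all 16 samples, and the range in sham overlapped that of each TCI group. Summed C1q was 15.5 to 32.4 FPKM in sham, 218 to 301 on TCI D7 and 120 to 448 on TCI D14.

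C1s, the protease that C1q sets in motion, was at 8.42, 11.1, 13.1 and 12.1 FPKM in sham and 11.6, 10.02 and 13.9 on TCI D1. It was at 79.5, 80.3 and 71.2 FPKM on TCI D7 and at 69.3, 113, 25.4 and 42.2 FPKM on TCI D14. No TCI D7 or D14 sample came down to the sham range, and TCI D14 replicate 3 was the nearest to it. The log2 fold change was 2.69 ± 0.355 on TCI D7 (limma, adjusted p = 0.000312), which passed the cut-offs, and 2.19 ± 0.329 on TCI D14 (limma, adjusted p = 0.00126), which missed them. Its neighbour C1r, the partner protease, passed on TCI D7 with a smaller change of 2.07, and the ratio of C1s to C1r was 0.651 to 0.744 in sham, 1.01 to 1.18 on TCI D7 and 0.758 to 1.01 on TCI D14. This ratio was chosen after its values were seen and was not tested.

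C2, cleaved by C1s and by the lectin pathway proteases, was at 3.36, 3.50, 5.95 and 4.01 FPKM in sham and 5.20, 4.29 and 5.86 on TCI D1. On TCI D7 it was at 58.3, 67.6 and 42.8 FPKM and on TCI D14 at 51.8, 117, 27.6 and 27.9 FPKM, so that the means of both days were 56.2 FPKM with a larger spread on TCI D14. C2 rose by 3.46 ± 0.391 on the log2 scale on TCI D7 (limma, adjusted p = 0.000136) and by 3.22 ± 0.362 on TCI D14 (limma, adjusted p = 0.000287).

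C3, the component on which the pathways converge, was at 0.58, 0.44, 0.87 and 1.58 FPKM in sham and at 0.79, 0.51 and 0.66 FPKM on TCI D1. On TCI D7 it was at 20.3, 13.9 and 19.3 FPKM, with 45.4 in the left-out replicate 3, and on TCI D14 at 23.6, 49.3, 8.35 and 17.9 FPKM. C3 was thus below 2 FPKM in every sham and TCI D1 sample and above 8 FPKM in every TCI D7 and D14 sample. It rose by 3.35 ± 0.406 on TCI D7 (limma, adjusted p = 0.000204) and by 3.57 ± 0.376 on TCI D14 (limma, adjusted p = 0.000217), the largest log2 fold change of the 10 genes on that day.

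Cfb, the neighbour of C2 on the chromosome and its counterpart in the alternative pathway, was at 1.28, 0.81, 1.23 and 1.46 FPKM in sham and at 2.10, 1.28 and 1.34 FPKM on TCI D1. It was at 13.0, 25.4 and 22.1 FPKM on TCI D7 and at 6.30, 17.7, 3.96 and 4.92 FPKM on TCI D14, where 3 of 4 samples were below the lowest TCI D7 sample. The log2 fold change against sham was 3.23 ± 0.362 on TCI D7 (limma, adjusted p = 0.000135) and 1.87 ± 0.336 on TCI D14 (limma, adjusted p = 0.00332), the latter short of the cut-off on p.

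On TCI D7 both receptors were at lower levels than every component on the FPKM scale, which is per length. C3ar1 was at 0.35, 0.45, 0.36 and 0.58 FPKM in sham and 0.51, 0.50 and 0.39 on TCI D1, and rose to 2.20, 2.85 and 1.5 FPKM on TCI D7 (1.03 in the left-out replicate 3). On TCI D14 it was at 1.10, 1.64, 0.72 and 1.08 FPKM, above sham without overlap. The log2 fold change was 1.13 ± 0.154 on TCI D7 (limma, adjusted p = 0.000365) and 0.56 ± 0.143 on TCI D14 (limma, adjusted p = 0.0193), and the latter missed both cut-offs. C5ar1 was at 0.93, 1.01, 1.08 and 1.4 FPKM in sham, at 7.33, 8.11 and 5.34 FPKM on TCI D7 and at 3.65, 7.57, 2.57 and 3.25 FPKM on TCI D14. It rose by 1.90 ± 0.230 on TCI D7 (limma, adjusted p = 0.000204), whereas its change of 1.24 ± 0.213 on TCI D14 (limma, adjusted p = 0.00265) missed the cut-off on p.

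Serping1, the inhibitor of C1s and C1r, had the highest level of the 10 genes in every group mean. It was at 27.9, 24.2, 31.6 and 37.1 FPKM in sham, at 33.1, 36.9 and 43.5 FPKM on TCI D1, at 189, 185 and 186 FPKM on TCI D7 and at 148, 245, 79.9 and 96.5 FPKM on TCI D14. The 3 TCI D7 samples were nearly equal, and the TCI D14 samples spread to both sides of them. Serping1 rose by 2.61 ± 0.286 on TCI D7 (limma, adjusted p = 0.000115) and by 2.08 ± 0.264 on TCI D14 (limma, adjusted p = 0.000602). The ratio of Serping1 to C1s within a sample was 2.18 to 3.31 in sham, 2.85 to 3.68 on TCI D1, 2.31 to 2.62 on TCI D7 and 2.13 to 3.15 on TCI D14. The sham range overlapped that of each TCI group, while every TCI D1 sample was above every TCI D7 sample.

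**Figure D2:**
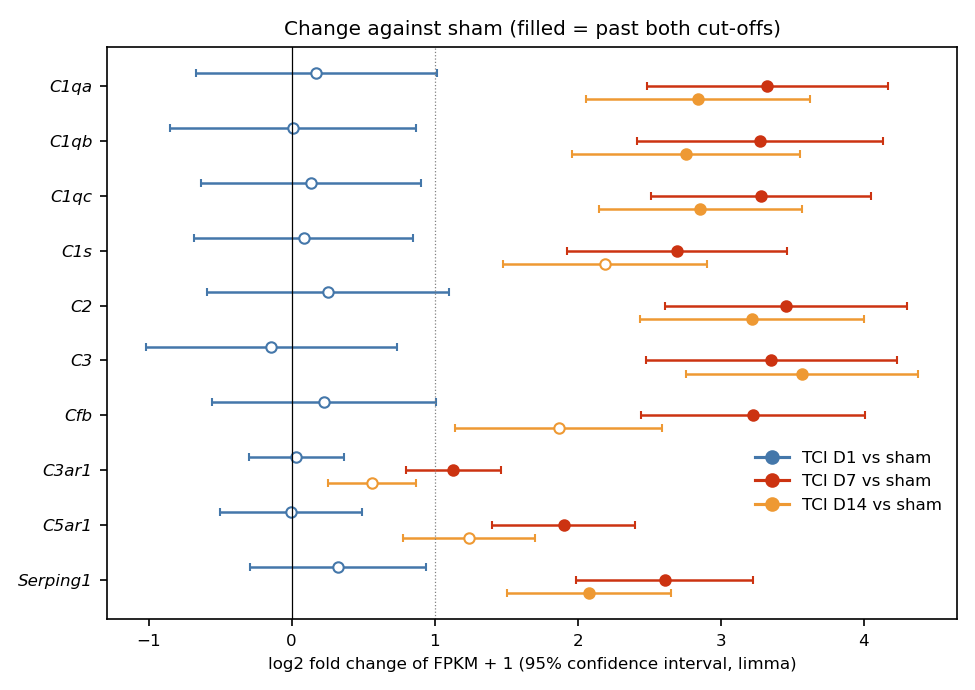
Log2 fold change of FPKM + 1 against sham with its 95% confidence interval (limma, 14 samples) for the 10 genes on TCI D1, D7 and D14, filled where a gene passed both cut-offs. The TCI D1 intervals all include 0, all 10 genes passed on TCI D7, and C1s, Cfb, C3ar1 and C5ar1 did not on TCI D14.

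On TCI D7, 10 of the 10 genes passed the cut-offs as higher, against 1.83% of the 14023 tested genes (257 higher and 0 lower), and their median log2 fold change was 3.25 against 0.04 over all tested genes. C3 and C3ar1 reached the level needed for testing only through their TCI D7 and D14 samples, so that their entry into the test was not independent of the change, and 8 of 8 passed without them, against 1.27% of the 13335 tested genes that did not depend on such samples. Over all 16 samples 9 of 10 passed, against 2.38% of 14087 genes, since C3ar1 fell just under the cut-off on size (log2 fold change 0.97). With the adjusted p relaxed to 0.05, 10 of 10 passed over the 14 samples, against 3.93% of the tested genes. Leaving out 1 sample moved genes across the p cut-off. The count was 5 without sham replicate 1 or 2, where 68 and 69 of all tested genes passed as higher. It was 2 without TCI D7 replicate 1 or 2, beside 49 and 52 of all tested genes. Calls thus fell over all tested genes as well. In these and all other alternatives run the adjusted p of each of the 10 genes, where tested, stayed at or below 0.00314 (limma).

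On TCI D14, 6 of 10 genes passed (C1qa, C1qb, C1qc, C2, C3 and Serping1), against 0.642% of the tested genes (90 higher and 0 lower), with a median log2 fold change of 2.47 against 0.03 over all tested genes. Without C3 and C3ar1 5 of 8 passed, against 0.517% of the 13335. At the looser adjusted p of 0.05 the count was 9, all but C3ar1, against 2.58% of the tested genes. The count at 0.001 was less stable than on TCI D7. It was 0 without sham replicate 1, 2 or 3, where 15, 15 and 21 of all tested genes passed as higher. It was 2 without sham replicate 4 (29 of all tested genes). It was 3 without TCI D1 replicate 1, 3 or 4 (37, 35 and 34), TCI D7 replicate 1 or 2 (43 and 50) or TCI D14 replicate 1 (36). With only the 2 groups compared in the model it was 0 (4 of all tested genes), and with no filter on low genes 3 (31). In these fits calls over all tested genes, 90 in the main fit, fell as well. Over all 16 samples the count was 7, against 0.66% of genes. In these and all other alternatives run the 9 genes other than C3ar1 had an adjusted p at or below 0.0200 where tested (limma).

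In this model the 10 genes did not differ detectably between TCI D1 and sham. The study, with another test at the same cut-offs, called other numbers of genes and called some on day 1. None of the 10 genes passed, as of all tested genes 0% did in either direction, and at an unadjusted p under 0.05 the counts were 0 of the 10 and 734 of all tested genes (limma). Log2 fold changes lay between −0.14 for C3 and 0.32 for Serping1 (95% confidence interval −0.29 to 0.94), and the upper limits of the intervals ran from 0.37 for C3ar1 to 1.10 for C2. The sham and TCI D1 ranges overlapped for 10 of 10 genes, while every TCI D1 sample was higher in 6.17% of the tested genes and lower in 5.73%.

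From TCI D7 to TCI D14 none of the 10 genes passed (limma), against 0% of tested genes as higher and 0.0143% as lower, and 3 had an unadjusted p under 0.05. These were Cfb, with a log2 fold change of −1.36 (95% confidence interval −2.15 to −0.58, limma, adjusted p = 0.219), C3ar1, with −0.57 (limma, adjusted p = 0.224), and C5ar1, with −0.66 (limma, adjusted p = 0.347). Without TCI D14 replicate 2 the change of Cfb was −1.77 (limma, adjusted p = 0.00223), still short of the cut-off, and over all alternatives its adjusted p ran from 0.00223 to 0.810. C3 had the only positive value, 0.22 (95% confidence interval −0.66 to 1.09), which turned to −0.11 over all 16 samples. The median log2 fold change of the 10 genes was −0.51, against −0.02 over all tested genes. Mean FPKM was higher on TCI D7 than on TCI D14 in 9 of the 10 genes and in 8 over all 16 samples. C2, 1 of the 9, was nearly equal at 56.22 and 56.16 FPKM. The ranges of the days overlapped for every gene. Against this, every TCI D14 sample was lower in 4.24% of tested genes and higher in 2.79%.

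Compared with TCI D1 in place of sham, 8 of 10 genes passed on TCI D7, against 0.884% of tested genes, and C1s and C3ar1 had adjusted p-values of 0.00101 and 0.00122 (limma). On TCI D14 only C3 passed against TCI D1, with a log2 fold change of 3.71 (limma, adjusted p = 0.000370), against 0.185% of tested genes. At the looser adjusted p of 0.05, 9 of 10 passed on TCI D14 against TCI D1, beside 2.18% of tested genes. Without C3 and C3ar1 the counts at 0.001 were 7 of 8 on TCI D7, against 0.615% of the 13335 genes, and 0 of 8 on TCI D14, against 0.165%. Both counts moved with single samples, from 0 to 10 for TCI D7 and from 0 to 6 for TCI D14. In brackets below are the numbers of all tested genes that passed as higher in the same fits. In the main fit these were 124 for TCI D7 and 26 for TCI D14. For TCI D7 the count was 0 without any 1 of TCI D1 replicates 1, 3 and 4 (30, 23 and 26) or TCI D7 replicates 1 and 2 (14 and 22). It was 2 without sham replicate 2 (64), TCI D7 replicate 4 (105) or TCI D14 replicate 1 (81). It was 3 without sham replicate 1 or 3 (65 and 71) and 4 without sham replicate 4 (79). For TCI D14 it was 0 without any 1 of TCI D1 replicates 1, 3 and 4 (7, 0 and 0) or TCI D14 replicates 1 and 4 (11 and 18). It was 6 without TCI D14 replicate 2 (115) and 3 without TCI D14 replicate 3 (48).

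In the levels of the 10 genes, TCI D14 rats differed from each other more than the rats of other groups. The median SD of log2(FPKM + 1) over the 10 genes was 0.864 on TCI D14, against 0.281 in sham, 0.191 on TCI D1 and 0.267 on TCI D7, and it was larger on TCI D14 than on TCI D7 in 9 of 10 genes, C3ar1 being the exception. The 10 genes moved together across these rats, so that the counts of genes given here are not independent of each other. No share of all tested genes stands beside them. Replicate 2 was the highest of the 4 in 10 of 10 genes, and the lowest was replicate 3 in 8 genes and replicate 4 in C1qb and C1qc. In replicate 2 the markers of macrophages (8 of 10) and of T cells (10 of 10) were also the highest of the 4 rats.

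Proportions between components shifted in some pairs and not in others. The ratio of C3 to Cfb within a sample was 0.453 to 1.08 in sham, 0.376 to 0.493 on TCI D1, 0.548 to 1.56 on TCI D7 and 2.11 to 3.75 on TCI D14, where no sample overlapped the other groups. The left-out TCI D7 replicate 3, at 2.10, was just under the TCI D14 range. C2 to Cfb was 2.63 to 4.84 in sham, 2.48 to 4.37 on TCI D1, 1.93 to 4.48 on TCI D7 and 5.68 to 8.22 on TCI D14, again with TCI D14 above the rest. These ratios were chosen after their values were seen and are given without a test.

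**Figure D3:**
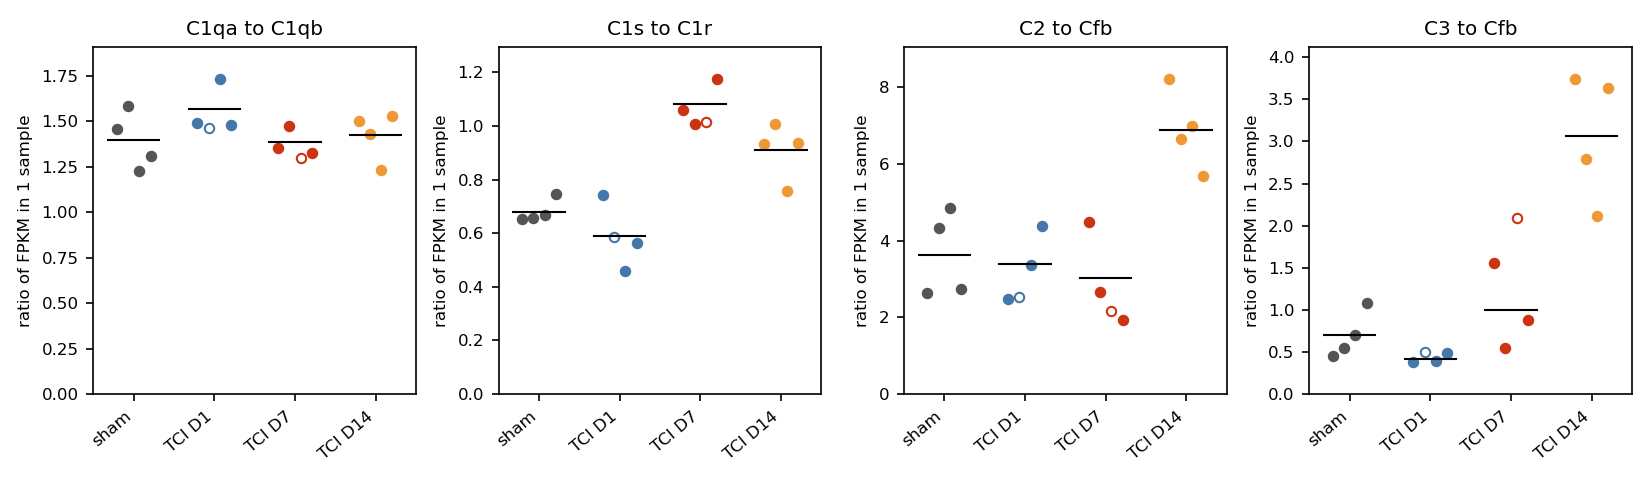
Ratio of FPKM within each of the 16 samples for 4 pairs of genes, by group, with 1 point per rat, bars at the mean of the filled points and open points for the 2 samples left out of the model. C1qa to C1qb stays between 1.23 and 1.74, whereas C2 to Cfb (5.68 to 8.22) and C3 to Cfb (2.11 to 3.75) are highest in the 4 TCI D14 samples.

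Macrophage markers moved with the 10 genes. Of 10 macrophage markers, 6 passed the cut-offs on TCI D7 and 4 on TCI D14, and their summed level was 38.4 to 51.4 FPKM in sham, 46.0 to 49.3 on TCI D1, 222 to 314 on TCI D7 and 119 to 377 on TCI D14. Their ratios of mean FPKM to sham were 3.06 to 11.5 (median 5.17) on TCI D7 and 2.31 to 9.12 (median 3.63) on TCI D14, ranges that hold the ratios of C1qa, C1qb, C1qc, C1s, C3ar1, C5ar1 and Serping1 on both days but not those of C2 and C3 on either day or of Cfb on TCI D7. Only Cd68, at the top of both ranges, was above C1qa, C1qb and C1qc. The next marker, Fcer1g, was below them at 8.99 on TCI D7 and 7.08 on TCI D14. C1qa minus the mean of the macrophage list on the log2(FPKM + 1) scale was 0.85 to 1.42 in sham, 2.22 to 2.63 on TCI D7 and 2.05 to 2.99 on TCI D14. C5ar1 minus the same mean was −1.25 to −0.98 in sham, −1.40 to −1.14 on TCI D7 and −1.54 to −1.23 on TCI D14. For C3ar1 it was −1.86 to −1.49, −2.74 to −2.52 and −3.06 to −2.28, and for C3 −1.51 to −0.97, −0.63 to 0.29 and 0.16 to 1.19. For C1qb, C1qc, C1s, C2, Cfb and Serping1 the group means of this difference were higher on both days than in sham. The added 1 FPKM compresses changes of low genes such as the receptors on this scale. T cell markers were higher as well (9 of 9 tested passed on TCI D7 and 4 on TCI D14), but 8 of the 9 and both tested neutrophil markers were tested only through their TCI D7 and D14 samples. The summed level of neutrophil markers was 0.77 to 1.11 FPKM in sham and 5.13 to 19.98 on TCI D7, with 0 of 2 tested passing. Of 6 fibroblast markers 1 passed on TCI D7, with a summed level of 409 to 586 FPKM in sham and 946 to 1197 on TCI D7, and the lists of neuron, Schwann cell, satellite glia, endothelium, B cell, skeletal muscle, liver and carcinoma epithelium markers had 0 calls on either day. The summed level of 10 neuron markers was nonetheless lower without overlap, at 14799 to 15658 FPKM in sham, 12407 to 13111 on TCI D7 and 11993 to 14003 on TCI D14, and that of 6 endothelium markers was higher without overlap on TCI D7 (28.7 to 40.2 FPKM against 24.4 to 27.1 in sham) but not on TCI D14 (21.9 to 34.4). The part of these cell types in the levels of the complement genes was not tested.

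**Figure D4:**
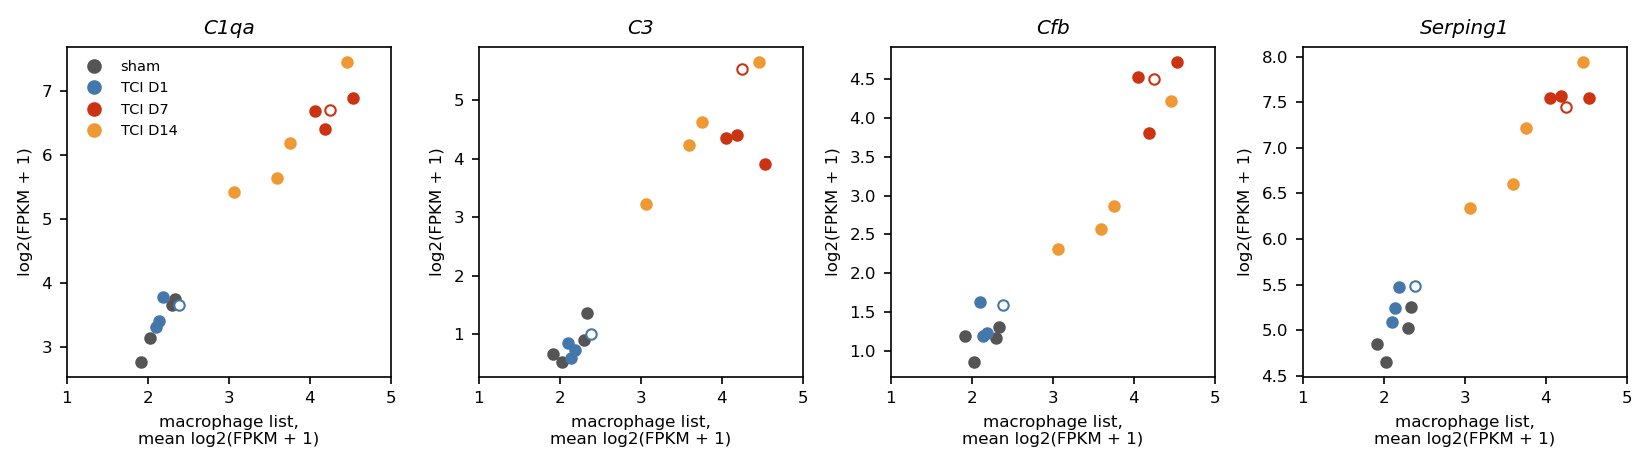
log2(FPKM + 1) of C1qa, C3, Cfb and Serping1 against the mean log2(FPKM + 1) of 10 macrophage markers in the 16 samples, coloured by group, with open points for the 2 samples left out of the model. Sham and TCI D1 samples have a list mean of 1.92 to 2.39, and TCI D7 and D14 samples one of 3.06 to 4.53 and higher values of all 4 genes.

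For each gene the tested genes of at least 5 FPKM with the most similar log2(FPKM + 1) over the 14 samples were sought among 9537, as a description of samples that share the same groups. C1qc was closest to C1qa (Pearson r = 0.998), and C1qa was closest to both C1qb (r = 0.997) and C1qc. Ctss was the second closest gene to C1qb, level with C1qc to 3 digits (r = 0.996 each), and the third closest to C1qa (r = 0.995). Lyz2 was the third closest to C1qc (r = 0.995). C1s and Serping1 shared Cp (r = 0.993 and 0.988) and C1qa (r = 0.987 and 0.989), beside Mpeg1 for C1s (r = 0.988) and Fcer1g for Serping1 (r = 0.988). C2 was closest to C4a (r = 0.995), then to Mpeg1 (r = 0.994) and Cd68 (r = 0.992). C3 was closest to Cd4 (r = 0.978), then to RT1-CE5 (r = 0.978) and Mpeg1 (r = 0.977). Cfb was closest to Srgn (r = 0.974), then to Pnp (r = 0.974) and Fcgr1a (r = 0.971). C3ar1 was closest to Diaph1 (r = 0.975), then to Isy1 (r = 0.973) and Ehbp1l1 (r = 0.967). C5ar1 was closest to Gmfg (r = 0.992), then to Fcgr1a (r = 0.990) and Unc93b1 (r = 0.988). Among the 10 genes themselves r ran from 0.836, between C3 and C3ar1, to 0.998.

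Other genes of the pathway were examined by their class. Of 43 further complement genes, 41 were listed and 29 tested, and 9 of the 29 passed as higher and 0 as lower on TCI D7, beside a background of 1.83%. Of the 29, 9 had fewer than 3 of the 7 sham and TCI D1 samples at 1 FPKM and needed TCI D7 or D14 samples to be tested, so that their entry was not independent of the change (C1rl, Fcna, Fcnb, Colec11, C4b, C6, Itgam, Itgax and Itgb2). Of these 9, 6 passed on TCI D7, and of the other 20 genes 3 did (C1r, C4a and Cfp), beside 1.27% of the 13335 tested genes that did not enter in this way. The median log2 fold change was 0.66 on TCI D7 and 0.50 on TCI D14 over the 29 genes, but 0.15 and 0.02 over the 20, and 0.0053 on TCI D1 over the 29. On TCI D14 only C4a passed, and 0 passed on TCI D1, from TCI D7 to D14 or from TCI D1 to D14, while Fcnb, C6 and Itgam, all 3 among the 9 genes just named, passed between TCI D1 and D7, and of the other 20 genes 0 did.

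Among recognition molecules and their proteases 3 of 7 tested genes passed on TCI D7, and 1 of 3 without those among the 9. These were C1r, with a mean of 16.4 FPKM in sham and 71.7 on TCI D7, and the ficolins Fcna (0.26 and 2.51 FPKM) and Fcnb (0.12 and 6.20 FPKM), pattern receptors of the lectin pathway that did not exceed 0.73 and 0.16 FPKM in any sham or TCI D1 sample of the model. Of the other early components 3 of 4 passed, and 2 of 3 without C4b. C4a had 6.31 FPKM in sham and 56.3 on TCI D7 (log2 fold change 2.99), C4b had 0.76 and 11.8 (2.84), and properdin (Cfp), which stabilises the alternative convertase, had 3.17 and 8.56 (1.18). C4a and C4b are close copies, and how reads shared between them were split is uncertain. Cfd, the protease that cleaves factor B, had a log2 fold change of 1.87 (limma, adjusted p = 0.00114) and missed the cut-off.

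Of 3 terminal components tested 1 passed, C6, on TCI D7 at 1.86 FPKM against 0.14 in sham. C6 did not exceed 0.36 FPKM in sham or on TCI D1 and was tested through TCI D7 and D14 samples alone. C7, the most abundant of the 3, had 20.1 against 6.61 FPKM (limma, adjusted p = 0.00132) and did not pass. C5, C8a, C8b and C9 were too low to test, with C5 at 0.07 to 0.14 FPKM and the others at or below 0.05 FPKM in every one of the 16 samples. These 4 and Cfd were named after their values were seen. C5 is the source of the ligand of C5ar1.

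Membrane regulators protect host cells from complement. Of the 6 tested, 0 passed on either day, and the most abundant, Cd59, which blocks membrane pore assembly, was at 422 ± 22.1 FPKM in sham (SD, n = 4), 408 ± 13.6 on TCI D7 (n = 3) and 413 ± 27.9 on TCI D14 (n = 4), with a log2 fold change on TCI D7 of −0.05 (95% confidence interval −0.17 to 0.08). Clu, the most abundant of the fluid-phase regulators, was at 428 FPKM in sham and 455 on TCI D7 (log2 fold change 0.09, 95% confidence interval −0.04 to 0.21). Vtn, another fluid-phase regulator, had a log2 fold change on TCI D7 of 0.66 (limma, adjusted p = 0.0331). The membrane regulator Cr1l had one of 0.22 (limma, adjusted p = 0.0398), and both missed the cut-offs. The other tested regulators of both classes lay between −0.15 and 0.09. Among the other receptors 2 of 5 passed on TCI D7, Itgam (0.475 FPKM in sham and 3.70 on TCI D7) and Itgb2 (0.805 and 7.34 FPKM), which together form the receptor for a C3 fragment on myeloid cells. Both needed their TCI D7 or D14 samples to be tested, and of the 2 receptors that did not, 0 passed. The log2 fold changes of these receptors on TCI D7 were 0.75 for C5ar2 (limma, adjusted p = 0.00103) and 0.24 for Cd93 (limma, adjusted p = 0.483). Vtn, Cr1l, C5ar2 and Cd93 were named after their values were seen.

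**Figure D5:**
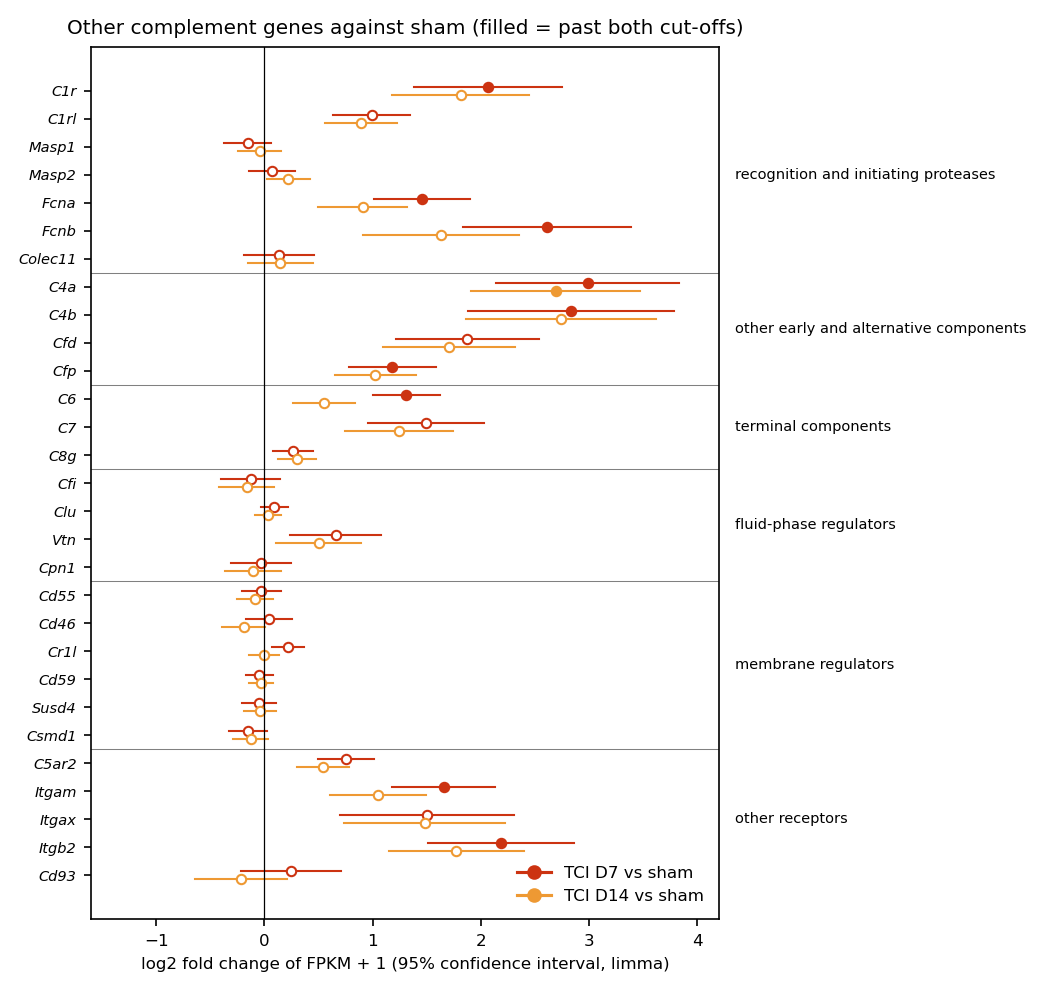
Log2 fold change of FPKM + 1 against sham with its 95% confidence interval (limma, 14 samples) for the 29 tested genes of the wider complement list, by class, on TCI D7 and D14, filled where a gene passed both cut-offs. Of the 29 genes 9 passed on TCI D7, and the 6 membrane regulators lie near 0.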

How the data were processed

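Reads of low quality were discarded by the authors, who mapped the remainder with HISAT and Bowtie2, estimated gene expression with RSEM and deposited FPKM values, 1 table per sample of L3–L5 DRGs (16 samples, 4 per group, separate rats). The submitters' processing notes name CASAVA 1.4 and Bowtie2. The genome build, the annotation and other versions are not given in the sources used here. The deposited FPKM hold no read totals, although the study reports its read depth. Counting error of single genes was not estimated, and precision rests on the rats alone.

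Groups were taken from the sample labels. The deposited FPKM were taken to log2(FPKM + 1) for genes that reached 1 FPKM in 3 or more of the 14 samples used, and the 4 groups entered 1 linear model (limma 3.58.1 in R 4.3.3, eBayes with trend, Benjamini-Hochberg adjustment over all tested genes). The cut-offs were the study's, but its test was another, so that its numbers of called genes differ from those given here. The procedure was tested on simulated data. Tables and figures were made with Python 3.11.15 and matplotlib 3.10.9.

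The 10 genes, the wider complement list and the marker lists were chosen with earlier results of these data known. Of the wider and marker lists, 2 genes are not reported here and were left out of the counts. Genes named were the 10, the wider-list genes past the cut-offs in any comparison or most abundant in their class, and the 3 most similar genes of each. Sample numbers did not pair the samples, which came from different rats (correlations of same-numbered deviations −0.095 to 0.269, 18 pairs). Alternatives were all 16 samples, 2 groups only, limma without trend, a pseudocount of 0.1, no filter on low genes, a filter on a mean of 5 FPKM, quantile normalization, an adjusted p of 0.05, a replicate block and each sample left out. A fit of 15 samples with TCI D1 replicate 2 kept was chosen after seeing the data.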

Additional observations from a re-analysis of the deposited data

Results flagged for a closer look

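C1qb in TCI D7 replicate 1 (62.2 FPKM) lay apart from the other 3 rats of its group (76.8 to 80.0 FPKM). On the log2(FPKM + 1) scale the gap was 0.839 of the whole range, above Dixon's 95% critical value for 4 samples. On the FPKM scale the gap is a smaller part of the range and does not reach that critical value, so the flag depends on the scale. C1qb in this rat was the only value flagged on the log2 scale among 40 groups of 4 samples tested, of which chance is expected to give about 1 in 20. It is still above every sham sample.

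The 2 samples left out of the model carried values as well. In TCI D7 replicate 3, 10 of the 10 genes were above every sham sample, as were 36.9% of the 14023 tested genes. C3 and C3ar1 among these genes were tested only through TCI D7 and D14 samples of the model. In TCI D1 replicate 2, 4 of the 10 (28.3% of the tested genes) were above every sham sample, namely C1qc, Cfb, C5ar1 and Serping1.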

How the results depend on the processing

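For TCI D7 and TCI D14 against sham no alternative changed the direction of any of the 10 genes. Counts of genes past the cut-offs moved, as did those over all tested genes, which are given in brackets below (genes that passed as higher). Leaving out 1 sample gave 2 to 10 genes for TCI D7 against sham (49 to 471) and 0 to 8 for TCI D14 against sham (15 to 173). It gave 0 to 10 for TCI D7 against TCI D1 (14 to 400) and 0 to 6 for TCI D14 against TCI D1 (0 to 115). A replicate block, with numbers that do not pair these rats, gave 6 for TCI D7 (112) and 0 for TCI D14 (19) against sham. Against TCI D1 it gave 0 for TCI D7 (25) and 0 for TCI D14 (6). With only the 2 groups compared the counts for TCI D14 were 0 against sham (4) and 0 against TCI D1 (0). With no filter they were 3 for TCI D14 against sham (31), 1 for TCI D7 against TCI D1 (61) and 0 for TCI D14 against TCI D1 (16). For TCI D14 against TCI D1, all 16 samples gave 5 (61) and a pseudocount of 0.1 gave 3 (74). An adjusted p of 0.05 gave 9 (306) and the 15 samples chosen after seeing the data gave 5 (76).

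Signs turned only for changes near 0. For C5ar1 on TCI D1 (−0.0034 on the log2 scale) they were 0.087 over all 16 samples, 0.11 with the replicate block, 0.087 over the 15 samples and −0.043 to 0.061 with 1 sample left out. With 1 sample left out, TCI D1 changes were −0.016 to 0.31 for C1qa, −0.19 to 0.17 for C1qb, −0.013 to 0.25 for C1qc, −0.035 to 0.19 for C1s and −0.25 to 0.026 for C3. From TCI D7 to D14, C3 was −0.11 over all 16 samples and −0.19 to 0.62, and C2 −0.68 to 0.0071, with 1 sample left out. The cause of these shifts was not tested. Depth is unknown.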
